A study of Mus musculus with 2 samples.

Results

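The 10 transcription factor genes of the distal nephron and collecting duct described here in DNase-seq data of mouse kidney were Tfap2a, Tfap2b, Tfcp2l1, Grhl2, Ehf, Elf5, Gata2, Gata3, Foxi1 and Hmx2. They were taken as a list of names, chosen with earlier results of these data known. All 10 were found among the 21646 protein-coding genes that GENCODE M21 places on the autosomes and X. The locus of a gene was its body plus 10 kb at either end. DNase-seq maps accessible DNA by sequencing the ends left where the enzyme DNase I cuts open chromatin. The tissue was kidney of B6CASTF1/J females, 8 to 10 months old, with no treatment given in the labels, measured in 2 libraries, biological replicates 1 and 2 of 1 group. B6CASTF1/J is the first-generation cross of C57BL/6J and CAST/EiJ, and reads of the CAST/EiJ chromosome set may map less well to the C57BL/6J reference, which was not tested. The libraries came from separate tissue samples under 1 shared donor entry, so the spread between them may be technical, and with 1 group no test between conditions was possible.

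The distal nephron and collecting duct adjust the salt, water and acid that leave the kidney. Their principal cells reabsorb sodium and water, and their intercalated cells secrete acid or base. The 10 genes encode factors of 6 families that bind DNA and switch on genes of such epithelia: AP-2 (Tfap2a, Tfap2b), grainyhead (Tfcp2l1, Grhl2), epithelial ETS (Ehf, Elf5), GATA (Gata2, Gata3), forkhead (Foxi1) and HMX homeobox (Hmx2). Several of them are used in other tissues too, Gata3 in T cells, Gata2 in blood and endothelium, Elf5 in mammary gland and trophoblast, and Hmx2 in the inner ear.

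The sequences of 9 accessible stretches on which the results below turn are given first, from the GRCm38.p6 genome, each written 5′ to 3′. Capitals mark bases inside footprints found in both libraries, footprints being short stretches that DNase I cut less than their surroundings. Distal stretches are whole regions on the plus strand. The Tfcp2l1 and Foxi1 promoters, the strongest and the weakest of the 10, are shown up to the base before the start of transcription. The Tfcp2l1 promoter is chr1:118627781-118627945 on the plus strand and the Foxi1 promoter is chr11:34208090-34208237 on the minus strand.
Tfcp2l1 promoter: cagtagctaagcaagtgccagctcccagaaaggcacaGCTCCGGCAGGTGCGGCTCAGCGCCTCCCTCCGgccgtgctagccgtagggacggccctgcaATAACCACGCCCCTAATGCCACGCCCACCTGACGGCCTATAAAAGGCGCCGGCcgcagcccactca
Foxi1 promoter: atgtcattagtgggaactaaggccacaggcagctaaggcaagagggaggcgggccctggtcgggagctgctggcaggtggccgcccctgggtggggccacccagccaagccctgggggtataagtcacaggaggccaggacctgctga
The next are the strongest distal regions of Tfcp2l1 (chr1:118672261-118672560), Gata3 (chr2:9879561-9879820) and Gata2 (chr6:88203040-88203320), all in introns.
Tfcp2l1 intron: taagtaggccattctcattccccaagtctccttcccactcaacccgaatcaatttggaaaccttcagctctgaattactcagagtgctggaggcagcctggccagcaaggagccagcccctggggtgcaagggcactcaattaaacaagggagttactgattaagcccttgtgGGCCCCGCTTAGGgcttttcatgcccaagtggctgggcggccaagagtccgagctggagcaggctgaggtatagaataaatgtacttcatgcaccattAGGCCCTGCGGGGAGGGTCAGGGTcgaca
Gata3 intron: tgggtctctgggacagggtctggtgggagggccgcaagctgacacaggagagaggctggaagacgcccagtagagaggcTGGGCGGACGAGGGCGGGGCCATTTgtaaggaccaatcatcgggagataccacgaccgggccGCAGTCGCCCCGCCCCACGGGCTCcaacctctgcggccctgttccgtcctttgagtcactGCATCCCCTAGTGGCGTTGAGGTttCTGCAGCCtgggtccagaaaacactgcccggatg
Gata2 intron: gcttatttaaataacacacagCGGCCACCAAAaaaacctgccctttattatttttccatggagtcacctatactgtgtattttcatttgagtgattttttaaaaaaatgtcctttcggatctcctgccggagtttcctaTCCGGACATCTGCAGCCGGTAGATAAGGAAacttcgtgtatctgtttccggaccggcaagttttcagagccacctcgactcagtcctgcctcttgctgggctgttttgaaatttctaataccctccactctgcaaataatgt
A Tfap2b intron region (chr1:19211101-19211360) is shown for a grainyhead motif that touches its footprint. The last 3, in an Elf5 intron (chr2:103439781-103439980) and in the flanks of Foxi1 (chr11:34213001-34213220) and Hmx2 (chr7:131540081-131540240), are 3 of the 6 distal regions whose signal differed over 2-fold between the libraries. They were chosen after their sequences were seen, for letters of the CTCF motif in their footprint.
Tfap2b intron: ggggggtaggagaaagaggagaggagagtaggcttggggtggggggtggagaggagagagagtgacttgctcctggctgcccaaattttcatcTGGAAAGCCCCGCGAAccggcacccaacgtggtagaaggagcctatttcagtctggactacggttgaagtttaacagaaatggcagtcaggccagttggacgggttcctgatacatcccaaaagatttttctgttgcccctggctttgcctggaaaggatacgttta
Elf5 intron: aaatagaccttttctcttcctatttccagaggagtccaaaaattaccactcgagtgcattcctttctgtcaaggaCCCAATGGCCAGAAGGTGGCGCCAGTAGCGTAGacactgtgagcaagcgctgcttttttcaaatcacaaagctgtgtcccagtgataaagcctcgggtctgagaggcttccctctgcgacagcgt
Foxi1 flank: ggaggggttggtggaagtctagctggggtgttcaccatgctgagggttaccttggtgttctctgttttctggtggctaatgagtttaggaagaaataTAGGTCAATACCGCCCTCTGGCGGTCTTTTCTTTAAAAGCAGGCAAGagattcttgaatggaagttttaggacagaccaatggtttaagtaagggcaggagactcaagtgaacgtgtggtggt
Hmx2 flank: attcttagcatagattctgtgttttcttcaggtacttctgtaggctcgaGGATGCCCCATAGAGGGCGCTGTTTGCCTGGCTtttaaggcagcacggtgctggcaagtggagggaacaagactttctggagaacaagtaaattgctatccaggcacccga

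The peak lists held 137083 and 125000 peaks in replicates 1 and 2, with median signals of 0.744 and 0.800 on the authors' scale, for which no unit was stated. Peaks of both libraries that overlapped by at least 1 base were joined into 96746 shared regions, and a region took the highest peak of each library as its signal. A promoter was open where a shared region lay within 500 bases of a protein-coding transcription start site (TSS), and a distal region lay outside all such windows. Markers of other cell types were checked because the tissue is a mixture. All 4 proximal tubule markers, both thick ascending limb markers and the distal convoluted tubule marker Slc12a3 were open. For principal cells Scnn1g was open and Aqp2 was not, and for intercalated cells Atp6v1b1 was open and Slc4a1 was not.

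All 10 members had an open promoter, against 62.9% of all protein-coding genes (13626 of 21646). Because the members were chosen with earlier results known, the shares over all genes are given for description and not as a test. With the 5′-most TSS of each gene alone, 6 of 10 members were open, against 59.0% of all genes. Most of these promoters were weak. The median signal of the strongest promoter region was 1.07 in the members and 4.77 over the 13626 open genes. Of the members, 9 lay below that median, and 7 were at or under 2.11, the lower quartile of all open promoters. In a whole-tissue sample, fewer cells of a type and less accessible DNA per cell cannot be told apart. In the authors' shorter peak list 5 of 10 members were open, Tfcp2l1, Grhl2, Ehf, Gata2 and Hmx2, against 58.9% of all genes. Ehf counted there by a region at an internal TSS, with a mean of 0.777, and not by its stronger region at the 5′-most TSS.

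The grainyhead genes had the strongest promoters of the 10. Tfcp2l1, which in mouse is needed for the patterning of principal and intercalated cells, had a promoter signal of 5.32 and 7.28 in replicates 1 and 2, a mean of 6.30 ± 1.39 (SD, n = 2), at chr1:118627781-118628040. This was higher than or equal to 61.2% of all open promoters and the only one of the 10 above their median. Its best base reached a false discovery rate (FDR) of 1.29e-40 and 2.07e-49 in the authors' FDR lists, and 3 footprints were shared. Grhl2, which maintains the epithelial barrier of the collecting duct, followed with 4.11 and 3.75, or 3.93 ± 0.253 (n = 2), at chr15:37232861-37233140, at or above 43.1% of open promoters.

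Gata2, a factor of blood and endothelium that also acts in collecting duct cells, came next with 2.80 and 3.17, or 2.99 ± 0.258 (n = 2). Its open region, chr6:88198501-88198740, had its centre 287 bases downstream of an internal TSS. That TSS is 4443 bases downstream of the 5′-most one, where no shared region was found. With promoter windows of 100 bases Gata2 had no open promoter. Gata3, a factor of the ureteric bud from which the collecting duct grows, had equally weak regions within 500 bases of both of its TSS. They had 1.08 and 1.08 near the 5′-most TSS (chr2:9889281-9889540) and 0.984 and 1.18 at the TSS 11434 bases further in (chr2:9878521-9878760). The internal promoter region averaged 1.08 ± 0.136 (n = 2), and the SD covered the gap between the 2 sites. The centre of the region near the 5′-most TSS lay 623 bases from that TSS. This region overlaps an exon of the gene 9230102O04Rik and no exon of Gata3. With promoter windows of 100 bases it counted as distal.

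The AP-2 genes were weakly open. Tfap2a had 1.88 and 0.925 at its 5′-most TSS (chr13:40738277-40738520), a mean of 1.40 ± 0.673 (n = 2). It was the only one of the 57 shared regions in the 10 loci with a signal over 2-fold higher in replicate 1, and 4 of its 6 TSS were open. Tfap2b, which mouse distal tubules need to form, had 0.951 and 0.942, or 0.946 ± 0.00615 (n = 2), at chr1:19211721-19212140. That region sat at a TSS 3140 bases downstream of the 5′-most TSS, where replicate 1 alone had a peak, with a signal of 0.794.

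The epithelial ETS genes were of similar strength. Elf5, expressed in mouse principal cells, had 0.678 and 1.45, or 1.06 ± 0.546 (n = 2), at chr2:103424741-103424960. This was the last of its 4 TSS, 13140 bases downstream of the 5′-most one, and the other 3 were not open. Ehf, close to Elf5 on chromosome 2, had 1.16 and 0.825, or 0.991 ± 0.235 (n = 2), at its 5′-most TSS (chr2:103303223-103303480), and a weaker region of 0.612 and 0.942 at a TSS 19518 bases further in.

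Hmx2 and Foxi1 were last. Hmx2 had 0.695 and 0.759, or 0.727 ± 0.0454 (n = 2), at a TSS 5288 bases downstream of its 5′-most TSS (chr7:131553907-131554111), with 3 shared footprints. Foxi1, which mouse intercalated cells need to form, had 0.430 and 0.342, or 0.386 ± 0.0623 (n = 2), at chr11:34208009-34208237. Only 2.05% of open promoters were as weak or weaker, and no footprint there was shared. From Gata3 down to Tfap2b the means ran from 1.08 to 0.946, within the spread between libraries of Elf5 and Ehf, so the order among these 4 genes is not resolved. The place of Tfap2a above them is not resolved either. At 0.925 in replicate 2 it lay below Gata3, Elf5 and Tfap2b. Hmx2 and Foxi1 lay below all other members in both libraries, apart from Elf5 at 0.678 in replicate 1, under the 0.695 of Hmx2.

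**Figure D1:**
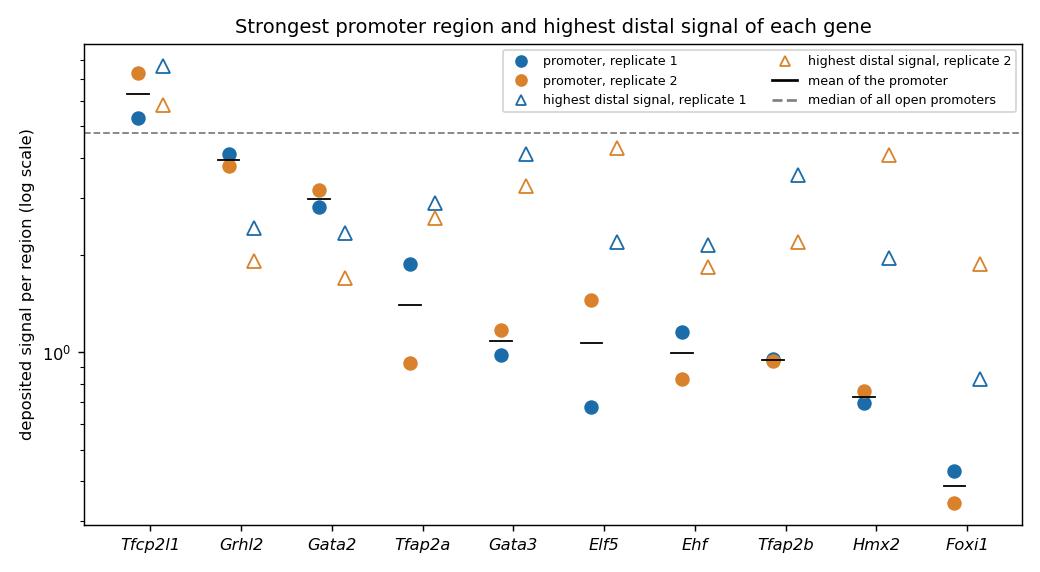
Deposited signal (log axis) of the strongest promoter region (filled circles, with a bar at the mean of both libraries) and the highest distal signal (open triangles) of each gene, by library. The dashed line is the median of all open promoters, 4.77. Tfcp2l1 alone has its promoter above that line, and in 8 of 10 genes the strongest distal region exceeded the promoter on the mean of both libraries.

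Distal accessibility was the larger signal at most of these genes. All 10 members had at least 1 shared distal region in the locus, against 72.4% of all genes, again as a description of a list chosen with earlier results known. The loci of the members were longer, with a median of 51.3 kb against 37.4 kb. The median number of distal regions was 3.5 in the members and 2 in all genes, and the median per 100 kb of locus was 5.67 in the members and 3.78 in all genes. Of the 42 distal regions 28 lay in introns, 5 in exons and 9 in flanks. Their median signal was 1.23, against 0.918 over all 77386 distal regions. In 8 of 10 members the strongest distal region exceeded the strongest promoter region on the mean of both libraries, against 28.0% of all open genes with a distal region (3284 of 11733). The median ratio was 2.43 in the members and 0.466 in those genes. Grhl2 and Gata2 were the exceptions on the mean. By single libraries it was 8 of 10 in replicate 1 and 7 of 10 in replicate 2, where the Tfcp2l1 promoter, at 7.28, exceeded its strongest distal region, at 5.81. With the shorter list 3 of the 5 open members had the strongest distal region above the promoter, and Gata2, open there, had no distal region. With the FDR under 0.001 it was 4 of 6 open members, and with the 5′-most TSS alone 5 of 6. Members with no open promoter under these settings could not count. The share over all genes is not given for these settings, so the contrast with 28.0% holds for the main setting alone.

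Tfcp2l1 carried the most distal regions, 10 in a locus of 77.2 kb. The strongest of them, and of all 42, lay in an intron 44465 bases into the gene (chr1:118672261-118672560). Its signal was 7.68 and 5.81, and its mean was 1.07 times that of the promoter. Both shared footprints printed in capitals for this region lie in its right-hand part. Regions of 2.99 and 2.30 in an intron (chr1:118661081-118661320), of 3.42 and 2.41 in an exon (chr1:118682041-118682400) and of 2.23 and 2.56 in an exon (chr1:118683761-118684000) followed. The weakest, 0.661 and 0.717, lay 724 bases downstream of the TSS (chr1:118628544-118628795).

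Gata3 had a single distal region, and it was stronger than either promoter. It lay in the intron at chr2:9879561-9879820 with 4.11 and 3.26, 3.41 times the promoter mean, and 1091 bases from the nearest TSS. Its 4 shared footprints covered 80 bases, and 64.2% of its bases were G or C.

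Tfap2a also had a single distal region, in a coding exon (chr13:40722721-40723280), with 2.90 and 2.61 and 8 shared footprints, the most of any of the 42. It also overlaps an exon of the noncoding gene Gm47061, and the region cannot be assigned to either gene by position. Tfap2b had 5, of which 4 were in the flanks. The strongest lay downstream of the gene (chr1:19245041-19245360) with 3.53 and 1.91, and the weakest, also downstream (chr1:19241481-19241700), had 1.00 and 0.950. An intron region 2317 bases from the 5′-most TSS (chr1:19211101-19211360) had 2.17 and 2.13, over 2-fold the signal of the promoter region next to it in both libraries.

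Elf5 had 6 distal regions. The strongest, with 1.92 and 4.28 (chr2:103456701-103456920), lay in a coding exon of the neighbouring gene Cat, which encodes catalase. Of those inside Elf5, the region at chr2:103439781-103439980 was the strongest with 1.14 and 2.73, and the one at chr2:103430801-103431060 had 2.20 and 1.38. Both exceeded the promoter on the mean of both libraries. The weakest had 0.612 and 0.642 (chr2:103435253-103435402). Ehf had 7, led by introns at chr2:103293761-103293980 with 2.11 and 1.83 and at chr2:103285661-103285900 with 2.15 and 1.62. Its weakest was upstream (chr2:103310994-103311240) with 0.810 and 0.467.

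Grhl2 had 8 distal regions in the longest locus, 150.5 kb. The strongest lay 1525 bases into the gene (chr15:37234381-37234740) with 2.42 and 1.91, 0.551 times the promoter. A group of 5 lay between 77595 and 103544 bases into the gene, led by chr15:37312961-37313180 with 1.60 and 1.35 and 4 shared footprints. The weakest, at chr15:37336527-37336632, had 0.438 and 0.450.

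Gata2 had 2 distal regions. The intron region (chr6:88203040-88203320) had 2.34 and 1.66 and lay 9289 bases from the 5′-most TSS, and the upstream one (chr6:88189521-88189928) had 1.35 and 1.70. Neither was in the shorter list of both libraries. The best base of the intron region had an FDR of 0.00109 in replicate 2, so it did not pass an FDR of 0.001. The printed intron sequence holds an E-box, CATCTG, and a GATA motif, AGATAA, with 8 bases between them, both inside a shared footprint. That pair was looked for after the values were seen. In mouse, an intronic Gata2 enhancer with an E-box and a GATA motif is known from blood stem cells and endothelium. All 3 endothelial markers were open (Tie1 2.56, Cdh5 1.18 and Pecam1 0.810), and of the blood markers Kit was open at 0.968 while Ptprc and Gata1 were not. The part of these cells in the Gata2 signal was not tested. Of the T cell markers, which bear on Gata3, neither Cd3e nor Cd4 had an open promoter, while their loci held 1 and 3 distal regions, with a mean signal of up to 3.76, in Cd4. The part of T cells in the Gata3 signal was not tested.

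Foxi1 had 1 distal region, 5022 bases upstream (chr11:34213001-34213220), with 0.827 and 1.88, 3.50 times the promoter mean. Hmx2 had 1, upstream (chr7:131540081-131540240), with 1.96 and 4.07, 4.15 times its promoter mean. The TSS nearest to it is that of Hmx3, 2706 bases away, and it also lies in the annotated body of Fgfr2, so its assignment to Hmx2 is by distance alone. The downstream flank of Hmx2 also held the promoter of Bub3, a gene of the mitotic checkpoint, with 7.76 and 5.25 (chr7:131560161-131560460), which was left out of the distal regions.

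**Figure D2:**
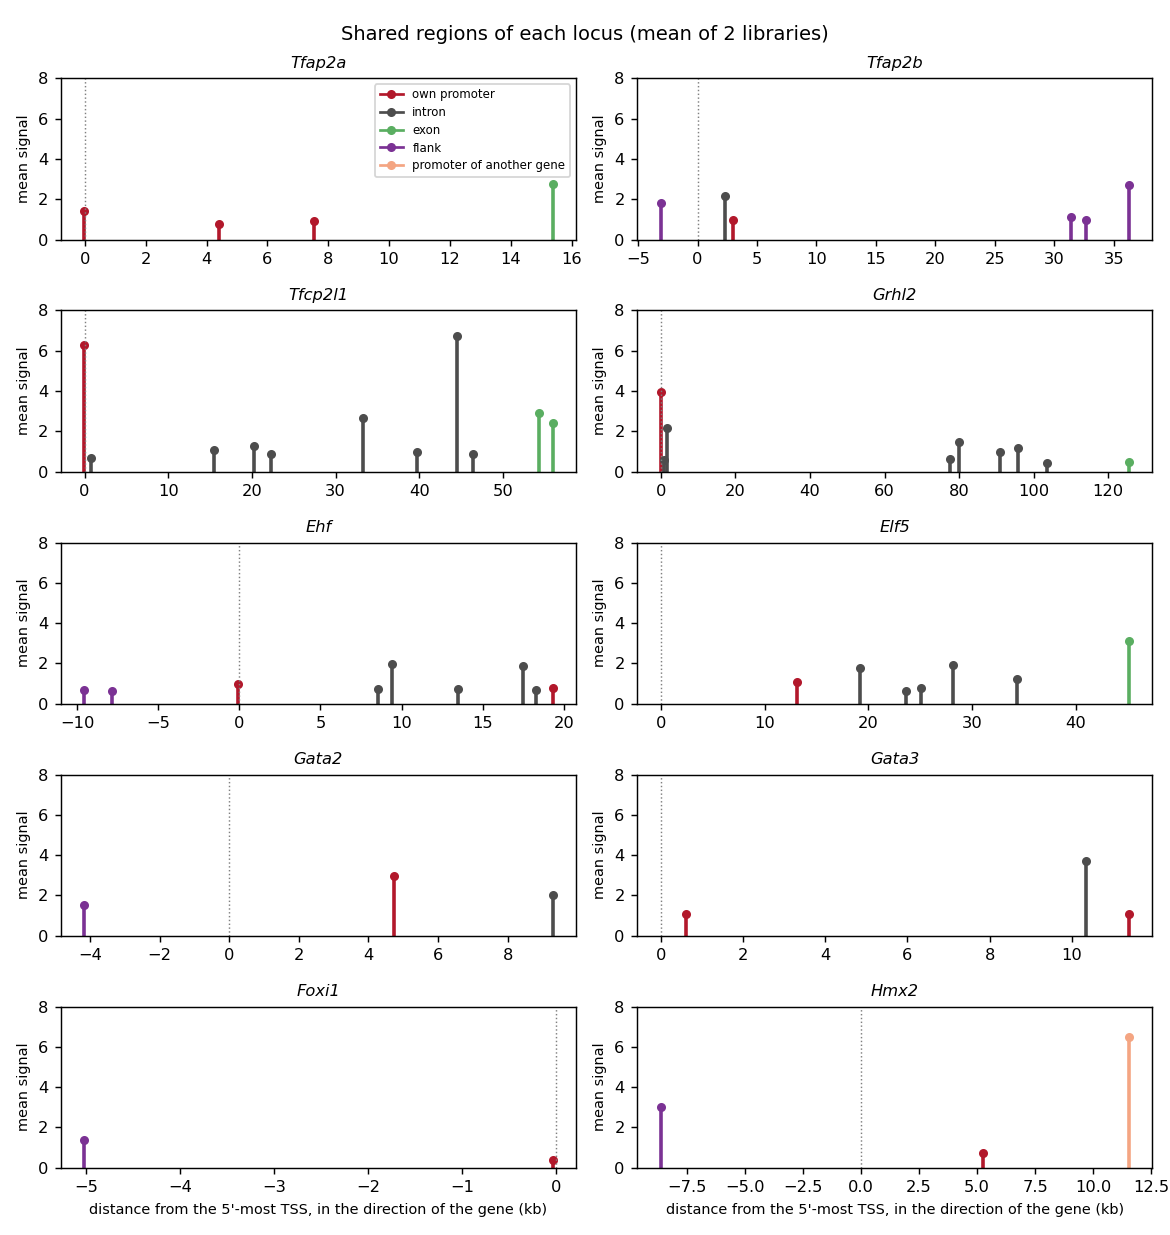
Shared regions of the 10 loci, with the distance from the 5′-most TSS in kb on the x axis (positive in the direction of the gene) and the mean signal of both libraries on the y axis. Colours give the class of a region. The tallest distal line is the Tfcp2l1 intron region at 6.75, and in Gata3 the intron region at 3.68 stands above both promoter regions at 1.08.

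The libraries differed in the 10 loci about as much as over the genome. Over the 57 shared regions the SD of the log2 ratio of replicate 2 to replicate 1 was 0.56, against 0.63 over all shared regions. Of the 42 distal regions 6 differed over 2-fold, against 14.2% of all distal regions, and the member share was 14.3%. None of the 57 lay beyond the middle 95% of the log2 ratios of regions of like signal. With the promoters, 8 of the 57 regions differed over 2-fold, against 11.9% of all shared regions. The Tfap2a promoter was higher in replicate 1 and the other 7 were higher in replicate 2, as were 63.9% of all shared regions with such a difference. Elf5 held 4 of those 7, its promoter, the regions at chr2:103439781-103439980 and chr2:103456701-103456920, and an intron region with 0.802 and 1.63 (chr2:103445881-103446080). The median log2 ratio over its 7 regions was 1.02, while the medians of the other 9 genes ran from −0.38 to 0.43. The rest were the single distal regions of Foxi1 and Hmx2, at 2.27-fold and 2.08-fold, and the upstream Ehf region chr2:103312741-103312960 with 0.422 and 0.934. The regions of Foxi1, Hmx2 and the Elf5 intron printed above held a core of the CTCF motif in their shared footprint, which was looked for after the sequences were seen. The footprint of the Elf5 intron region at chr2:103445881-103446080 held TGCCCTCT. It differs only in the first letter from CGCCCTCT, the core as it reads in the Foxi1 footprint, and was not counted as a core. The part of the CTCF motif in the difference between libraries was not tested.

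**Figure D3:**
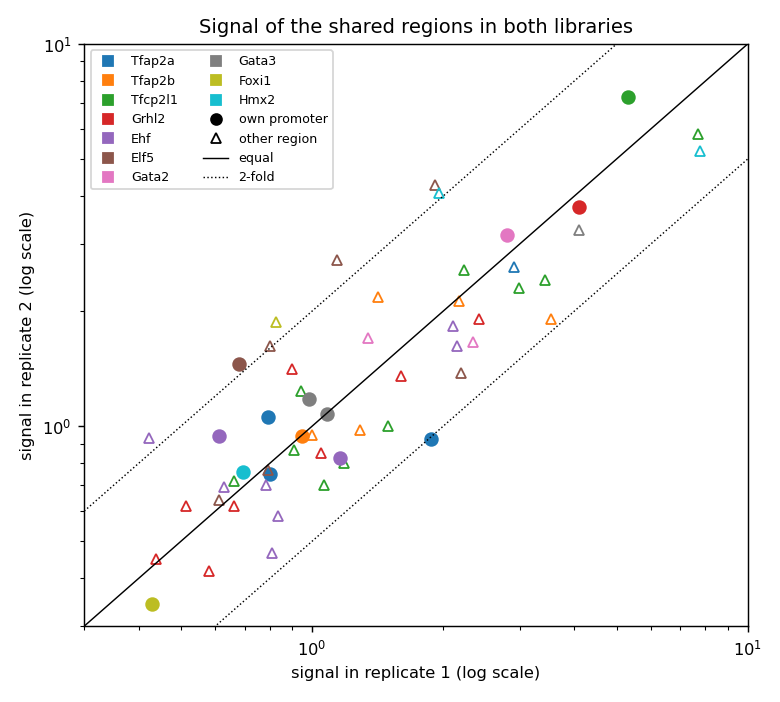
Signal of each of the shared regions in replicate 1 (x axis) and replicate 2 (y axis), both log axes, coloured by gene, with own promoters as filled circles and all other regions as open triangles. The solid line marks equal signal and the dotted lines a 2-fold difference. Of the 8 regions outside the dotted lines 4 belong to Elf5.

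Footprints were found in most of the distal regions. A footprint of both libraries lay in 28 of 42 distal regions of the members (66.7%), against 63.2% of all distal regions. The loci held 213 and 188 footprints in replicates 1 and 2, of which 42.7% and 48.9% overlapped one of the other library. Over the genome 50.9% and 50.8% did. Inside the shared regions 78 footprints were shared, from 15 in Tfcp2l1, 13 in Grhl2, 10 each in Tfap2a and Hmx2 and 9 in Elf5 to 1 in Foxi1. Gata2 had 7, Ehf 5, and Tfap2b and Gata3 had 4 each. In the Hmx2 count, 6 lay in the promoter of Bub3, and in the Elf5 count, 5 lay in the coding exon of Cat.

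The share of member distal regions with a motif of the members' own families differed from that over all distal regions by less than 2 of the 42 regions, for each motif searched. Both strands of the central 200 bases of each region were searched, and a match is a string of letters and not a bound site. The GATA motif AGATAA was in 4.76% of member regions and 6.84% of all distal regions, and TGATAA in 7.14% and 5.13%. The AP-2 motif GCCNNNGGC was in 9.52% and 8.92%. The grainyhead motif AACCGG was in 4.76% and 3.21%, and its palindrome AACCGGTT in none of 42 and 0.133%. The ETS motif GGAAGT was in 11.9% and 15.8%, the forkhead motif TGTTTAC in 2.38% and 3.35%, and the HMX motif CAAGTG in 16.7% and 13.6%. Of motifs of other kidney factors, CAAAGTCCA (HNF4) was in none of 42 and in 1.61%, TGANTCA (AP-1) in 7.14% and 7.86%, and GTTAAT (HNF1) in 11.9% and 9.57%. AACCGG and AACCGGTT overlap each other, so their counts are not independent. In whole distal regions of the members, AGATAA touched a shared footprint in 1 of the 2 regions that held it, the Gata2 intron. AACCGG did so in 1 of 2, the Tfap2b intron, where it begins in the last capitals. GCCNNNGGC touched one in 2 of 7 regions, GGAAGT in 2 of 6, CAAGTG in 2 of 9 and GTTAAT in 1 of 6. TGATAA in 3 regions, TGANTCA in 4 and TGTTTAC in 1 touched none.

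The members covered a wide range of CpG content. Observed over expected CpG within 500 bases of the 5′-most TSS had a median of 0.523 in the members and 0.566 in all genes. It ran from 0.158 at Hmx2 to 0.767 at Gata2, and neither of these 5′-most TSS was open. Over the 30 TSS of the members, 18 were open with a median of 0.575, and the other 12 had a median of 0.449. The 18 open TSS lay at 14 promoter regions, and some TSS of a gene lie close together. The medians therefore count some stretches more than once.

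The FDR files list the bases with an FDR under 0.05, and the median share of listed bases was 4.42% in the member loci and 3.29% in all loci in replicate 1. In replicate 2 it was 3.15% in the member loci and 3.38% in all. The members stood above the genome median in replicate 1 and below it in replicate 2, so no direction held. Tfcp2l1 had 6.90% and 6.51% in replicates 1 and 2. Tfap2b had 7.02% and 2.86%, Gata2 6.04% and 2.94%, and Hmx2 5.32% and 8.08%. The Hmx2 share also counts listed bases of the Bub3 promoter, which lies in the flank of Hmx2. Foxi1, with 2.17% and 2.64%, Gata3, with 2.64% and 1.59%, and Grhl2, with 2.82% and 3.15%, were below the medians of all genes in both.

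**Figure D4:**
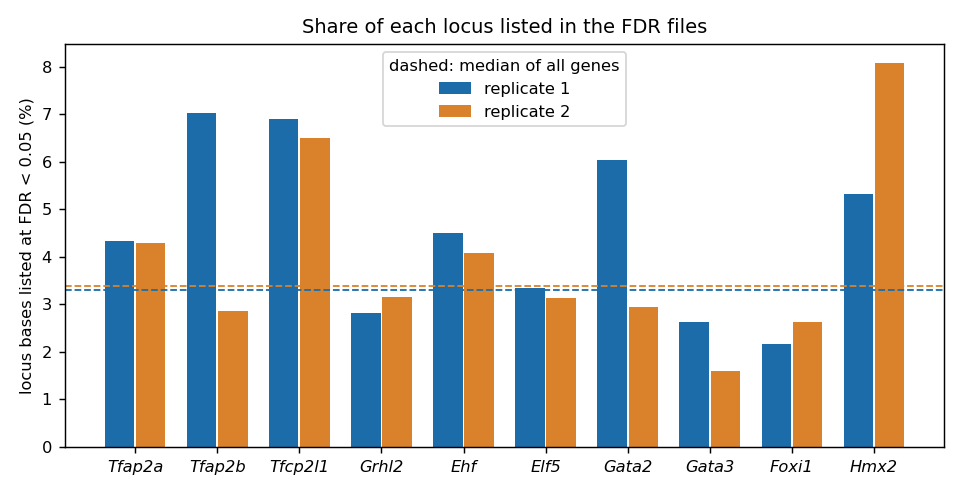
Share of the bases of each locus, in percent, listed at an FDR under 0.05 in replicate 1 and replicate 2 (bars from 0), with dashed lines at the median of all genes, 3.29% and 3.38%. Tfcp2l1 is high in both libraries, while Tfap2b and Gata2 are high in replicate 1 alone.

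At a stricter FDR fewer sites were left. In both libraries the best base was under an FDR of 0.001 in 33 of 57 member regions, against 71.6% of all shared regions. By this rule 6 of 10 members had an open promoter, against 59.6% of all genes. The strongest promoter regions of Tfap2a, Tfap2b, Gata3 and Foxi1 did not pass, with 0.00182, 0.0183, 0.00792 and 0.00164 in replicate 2. The authors' shorter list held 23 of the 42 distal regions in both libraries (54.8%), against 63.5% of all distal regions. A further 24 peaks in the loci were found in 1 library, 14 in replicate 1 and 10 in replicate 2. Their median signal was 0.637, against 0.389 over all 63346 such peaks. In 3 of them the other library listed bases under the FDR of 0.05.

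Relatives of the members and the genes of distal nephron function were set beside them. Of 19 relatives of the 6 families, 12 had an open promoter (63.2%), with a median signal of 2.26. The strongest were Tfcp2 with 17.5, Ubp1 with 12.0 and the epithelial ETS gene Elf3 with 10.7. In the GATA family Gata4 led the relatives with 1.41, in AP-2 Tfap2c had 0.607 and in the FoxI group Foxi3 had 0.929. Tfap2d, Tfap2e, Gata1, Gata5, Foxi2, Hmx1 and Hmx3 had no open promoter. The strongest distal region exceeded the promoter in 5 of the 12 open relatives.

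Of 33 genes of distal nephron function 29 were open (87.9%), with a median promoter signal of 1.17. In principal cell genes 9 of 10 were open with a median of 1.17, led by Scnn1g at 5.06 and Scnn1a at 3.08, subunits of the sodium channel, and Kcnj1, a potassium channel, at 3.67. In intercalated cell genes 13 of 15 were open with a median of 1.26, led by the proton pump subunit gene Atp6v0a4 at 6.26, by Hepacam2 at 5.62 and by the ammonia transporter gene Rhbg at 2.47. In genes of the distal convoluted and connecting tubule 7 of 8 were open with a median of 0.989, led by the kinase gene Wnk4 at 5.04, the sodium chloride cotransporter gene Slc12a3 at 1.51 and Calb1 at 1.03. The genes with no open promoter were Aqp2, Slc4a1, Slc4a9 and Trpv5. A distal region exceeded the promoter in 14 of 25 open genes with a distal region. The medians of the members and of the 3 cell groups lay between 0.989 and 1.26, all below 4.77. Of markers of other epithelia, Krt5, Krt14, Csn2 and Prl3d1 were not open, and 1 of 4 urothelium markers was open (Upk3a, 1.10).

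**Figure D5:**
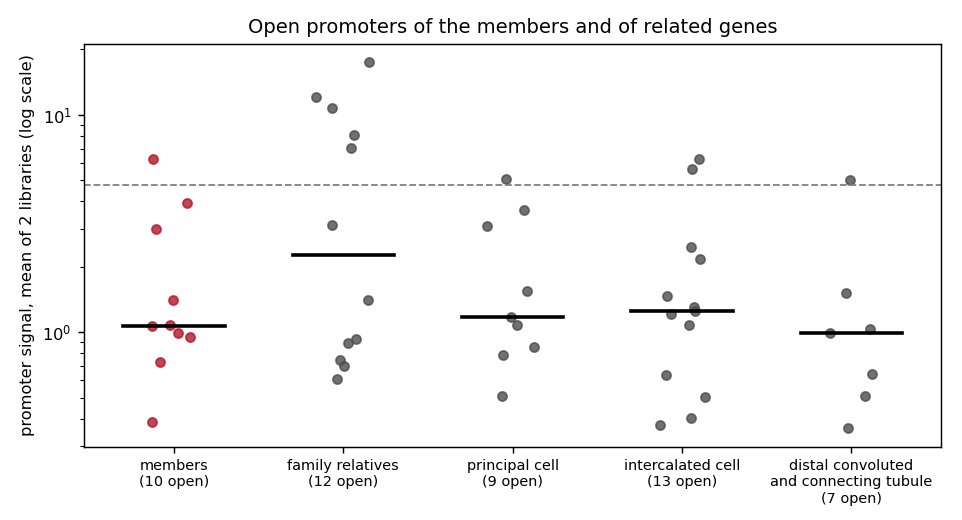
Promoter signal (mean of both libraries, log axis) of each open gene of the members (red), their family relatives and 3 groups of distal nephron genes (grey), with bars at group medians and a dashed line at the median of all open promoters, 4.77. Horizontal scatter carries no value. Medians are 1.07 in the members, 2.26 in the relatives, and 1.17, 1.26 and 0.989 in principal cell, intercalated cell and distal convoluted and connecting tubule genes.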

How the data were processed

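DNase-seq of 2 kidney libraries of 1 group was used. Per the file headers, all files are on assembly mm10 and the authors made them from the filtered alignments of each library, without pooling. The names of the aligner and callers were not given in the sources used here. The longer and shorter peak lists hold a deposited signal value per peak. Of these, 100% in both libraries were whole multiples of a step (0.00827 and 0.00834), within a tolerance of 0.05 steps. Whether a step is 1 read is not stated, so depth is unknown and no counting interval is given. The deposited FDR (q-value) files list runs of bases up to 0.05. The deposited footprint files carry a constant 0.01, a p-value or q-value level and not a value per site. The longer list was the main one.

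Shared regions, loci, promoter windows of 500 bases and distal regions are as given above, and coordinates are 1-based. The nearest gene was not used to assign a region, so a region can lie in the loci of several genes. Gene models are from GENCODE M21. Sequence is from RefSeq's GRCm38.p6 genome, in which 27887 of 27907 annotated start codons read ATG. Values are given per library and as mean ± SD (n = 2), beside the same value over all protein-coding genes or regions. No test was made, since there is 1 group. The members and lists were chosen with earlier results of these data known. All 10 members are described, with the strongest promoter region, the strongest and weakest distal region and any region over 2-fold apart between libraries. Relatives and function genes are named where they lead their family or group or have no open promoter. The second-ranked regions, the Gata2 E-box and the CTCF core were picked after their values were seen. Joining and counting steps were tested on simulated data. Alternatives were the shorter list, each library alone, promoter windows of 100 and 2000 bases, no flank or 50 kb, an overlap of 50%, summed signal, the 5′-most TSS alone and an FDR under 0.001. Python 3.11.15, numpy 2.4.6, pandas 2.3.3, matplotlib 3.10.9 and samtools 1.23.1 were used.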

Additional observations from a re-analysis of the deposited data

How the results depend on the processing

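Of 71 alternative values 47 stayed within the spread between libraries or within 1.5 times the reported count. Alternatives for the count of members whose strongest distal region exceeded the promoter, and the promoter, TSS and FDR settings for the log2 ratio, were added after seeing the data. That count, 8, was 3 with the shorter list, 4 under an FDR of 0.001 and 5 with the 5′-most TSS alone, which call fewer promoters open, 7 to 8 in single libraries, and 6 to 8 otherwise. Tfcp2l1 turned in replicate 2, and Gata3 had no distal region with windows of 2000 bases. The number of members with an open promoter, 10, was 9 with windows of 100 bases, where Gata2 was not open. It fell to 5 with the shorter list, 6 with the 5′-most TSS alone and 6 under an FDR of 0.001, which keep fewer sites by construction. It was 10 in each library alone. The median promoter signal of the members, 1.07, was 2.99 with the shorter list, 2.02 with windows of 2000 bases, 1.24 with the 5′-most TSS alone and 2.02 under an FDR of 0.001, and 1.07 to 1.12 in single libraries. The median number of distal regions, 3.5, was 1.5 with the shorter list and under an FDR of 0.001, 1 with no flank and 6.5 with 50 kb, and 4 to 6 in single libraries. The median distal signal, 1.23, was 1.97 with the shorter list, 0.983 with 50 kb and 1.93 under an FDR of 0.001, and 0.963 to 1.05 in single libraries. Shared footprints, 78, were 129 with 50 kb, and single libraries had 158 to 192, where none needs a partner. The number of members with a distal region was 8 to 10 under all alternatives. The median log2 ratio of the libraries, −0.07, was −0.15 to −0.07 in the 9 alternatives run for it. No paired analysis was possible because there is 1 group. Depth is unknown, and the spread rests on 2 libraries of 1 donor entry.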

Other observations

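The CTCF core met in 3 of the member regions that were over 2-fold higher in replicate 2 was then looked for in all distal regions. CTCF is a DNA-binding protein that marks chromatin loop anchors and insulators in most cell types. The letters AGAGGGCG, AGATGGCG, AGGGGGCG or AGGTGGCG, on either strand, were in the central 200 bases of 4 of the 42 member distal regions (9.52%) and of 5973 of all 77386 distal regions (7.72%). The 4 were the single distal regions of Foxi1 and Hmx2, the Elf5 intron region at chr2:103439781-103439980 and the upstream Gata2 region at chr6:88189521-88189928. They had log2 ratios of replicate 2 to replicate 1 of 1.18, 1.05, 1.26 and 0.34. The first 3 are the regions in which the core was first seen, so their high ratios were known beforehand. The Gata2 region alone was found by the search. The other 38 member distal regions, with none of these 4 strings, had a median of −0.18, and 3 of them were over 2-fold higher in replicate 2. Other forms of the motif were not searched for, so these regions may still hold it. The Elf5 region at chr2:103445881-103446080, among the 3, held TGCCCTCT and had a log2 ratio of 1.02. The Grhl2 region at chr15:37336527-37336632 held tgccacct and had 0.04. Both strings differ from a core on the other strand only in the first letter. The Gata3 intron region printed above held CGAGGGCG in a shared footprint and had −0.33. That string differs from the core AGAGGGCG only in its first letter. All 3 strings were picked after the values were seen.

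Over all distal regions the same letters went with a higher signal in replicate 2. The median log2 ratio was 0.78 with the core and −0.11 without it. Of regions with the core, 34.3% were over 2-fold higher in replicate 2 and 0.435% over 2-fold higher in replicate 1, and of regions without it 6.86% and 5.61% were. In 4 classes of rising signal the median with the core was 0.51, 0.74, 0.92 and 0.79, and without it −0.05, −0.12, −0.16 and −0.16. Regions were counted and not tested, since 1 library stands on each side of the ratio. The cause of the difference was not tested.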
